A study of Homo sapiens with 3 samples.

Results

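This account covers the transcripts of 7 CDK inhibitors and 3 RB pocket proteins in NCI-H1299, a human lung cancer line, after transfection with miR-34a or ghR-34a. The genes were CDKN1A, CDKN1B and CDKN1C (the CIP/KIP inhibitors), CDKN2A, CDKN2B, CDKN2C and CDKN2D (the INK4 inhibitors), and RB1, RBL1 and RBL2 (the pocket proteins). They were chosen by name, and every probe set that the platform annotation assigns to them was taken, of which 0 also carried another symbol. This gave 22 of the 54675 probe sets, for 9 of the 10 genes. No probe set used here was named for CDKN2C, which is not analysed further.

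The study profiled total RNA on 3 one-colour expression arrays, 1 each from mock cells, cells given miR-34a and cells given ghR-34a. The microRNA and ghR-34a, which the labels give by this name only, were transfected at 25 nM for 48 hours with a lipid reagent. The labels do not say what the mock culture was given, and a control with an unrelated RNA was not among the arrays. All 3 cultures were of the same line. With 1 array per condition there were no replicates, so that no spread, SD or p-value could be given, and every statement below describes these 3 arrays. A difference between arrays may also hold differences between single cultures, and the number of arrays limits the precision.

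CDK inhibitors bind cyclin-dependent kinases and restrain passage from G1 into S phase. INK4 proteins bind CDK4 and CDK6 and displace the D cyclins, while CIP/KIP proteins bind complexes of cyclins with CDKs and block CDK2 in particular. The targets of these kinases are the pocket proteins. RB1, RBL1 and RBL2 hold E2F transcription factors in check until the kinases phosphorylate them, and RBL1 and RBL2 are parts of the DREAM complex, which keeps cell cycle genes silent in resting cells. The microRNA added here is known to cause G1 arrest in many cancer lines, and the question addressed is whether CDK inhibitor transcripts differed with it. Its mature sequence, as RefSeq lists it for the MIR34A gene (GRCh38.p14, chr1:9151735-9151756, minus strand), is shown because the capitals, bases 2 to 8 of the strand, are the seed that pairs with target mRNAs.

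hsa-miR-34a-5p: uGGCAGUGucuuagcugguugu

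Signals were the authors' probe set intensity values. All differences are of log2(signal + 32), a scale that understates the change of low signals. For each gene the brightest probe set was used, and a gene was kept where its mean over the arrays reached a signal of 68.6, the median of all probe sets. A total of 11917 genes were kept, and all 9 measured members were among them, with 13 of their 22 probe sets at or above that level. Counts use 2 sizes, 1.5-fold (0.58 on the log2 scale) and 2-fold. The median difference of all kept genes was 0.038 for miR-34a minus mock and 0.0096 for ghR-34a minus mock. Of all kept genes 44.8% were below mock with miR-34a and 48.2% with ghR-34a, the background for the counts below mock given later. In the same comparisons 90% of kept genes lay between -0.60 and 0.65 and between -0.53 and 0.50. Across 30 spike-in control probe sets the SD of the difference from mock was 0.13 and 0.14. The epithelial keratins KRT8 and KRT18 had mock signals of 2524 and 17498 and the mesenchymal gene VIM 34003, while CDH1 (15.4) and EPCAM (21.2) were below the filter. Of 4 measured leukocyte markers, PTPRC (28.8) and CD14 (5.20) were below it and CD3E (113) and ITGAM (135) above.

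The measured CDK inhibitor transcripts were within 1.5-fold of mock in both transfectants. Of the 6 measured inhibitors, 0 were at least 1.5-fold higher and 0 at least 1.5-fold lower with either RNA. Among all kept genes 6.66% were at least 1.5-fold higher and 5.31% at least 1.5-fold lower with miR-34a, and 3.19% and 4.06% with ghR-34a, so a count of 0 among so few genes says little about the inhibitors in particular. The 6 differences ranged from -0.39 to 0.34 with miR-34a (median 0.22) and from -0.12 to 0.26 with ghR-34a (median 0.031). With miR-34a 1 was below mock and 5 above, and with ghR-34a 3 were below and 3 above. Of all kept genes 44.8% and 48.2% were below. CDKN1C, counted above with both, had a mock signal (61.7) under the filter. It was kept through its transfectant signals (81.2 and 79.4), which favours a difference above 0. CDKN2A, counted above with miR-34a, had a second probe set below mock. Over all 9 members the medians were 0.20 and -0.063. One pocket protein, RBL1, was the only member past 1.5-fold against mock, with miR-34a alone, and 0 members were past 2-fold, a size met by 1.14% of kept genes as a decrease and 1.22% as an increase with miR-34a, and by 0.571% and 0.453% with ghR-34a.

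**Figure D1:**
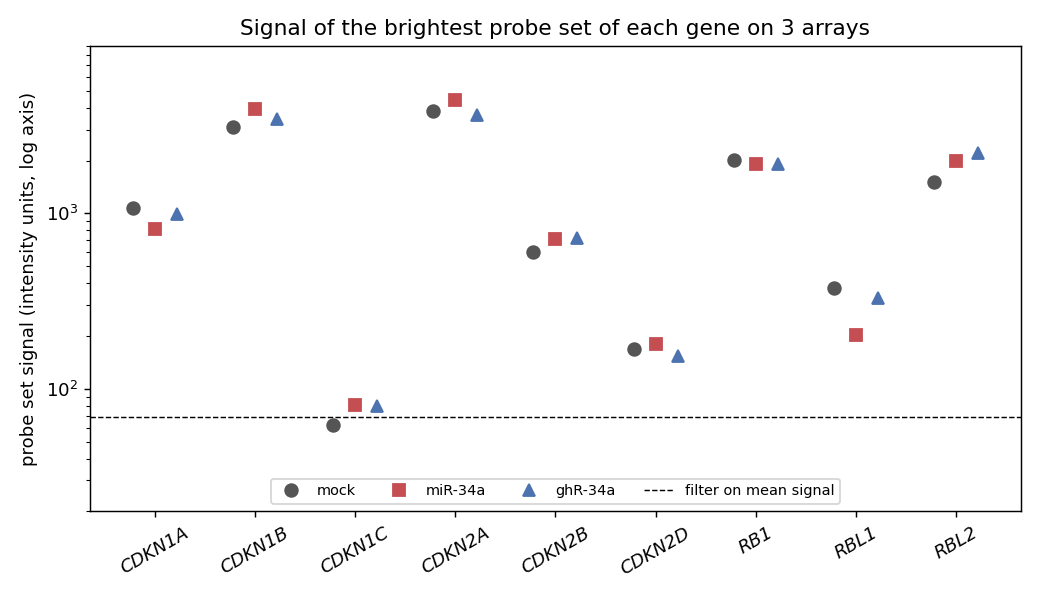
Signal of the brightest probe set of each of the 9 measured genes on the mock, miR-34a and ghR-34a arrays (1 point per array, log axis, intensity units), with the filter at 68.6 as a dashed line. Signals of a gene lie close together on the 3 arrays, with the widest gap for RBL1 between mock (378) and miR-34a (202), and CDKN1C sits at the filter.

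Among the CIP/KIP genes, CDKN1A encodes p21, an inhibitor of cyclin E-CDK2 that also binds the replication clamp PCNA. Its single probe set, 202284_s_at, had a signal of 1071 in mock, 809 with miR-34a and 985 with ghR-34a. Both transfectants were below mock, by log2 differences of -0.39 and -0.12. The first is 1.31-fold, and 11.7% of kept genes were as low or lower in that comparison. The transcript was thus well above the filter on all 3 arrays, and was not higher than mock with either RNA.

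CDKN1B encodes p27, whose protein level is set largely by SKP2-dependent destruction. Its signal was 3116 in mock, 3949 with miR-34a and 3431 with ghR-34a. The differences, 0.34 and 0.14, were both above 0, and the larger was 1.26-fold, a size reached or passed by 17.7% of kept genes. This was the largest positive difference of a CDK inhibitor with miR-34a. The gene has 1 probe set, so no second measurement within an array was at hand.

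CDKN1C encodes p57, an imprinted inhibitor that is silent in many tumours. All of its 5 probe sets were dim. The brightest had signals of 61.7 in mock, 81.2 with miR-34a and 79.4 with ghR-34a, and it alone reached the filter on its mean. Among the other 4 probe sets, signals ranged from 1.80 to 78.1 and the differences from -0.25 to 0.59 with miR-34a and from -0.040 to 0.50 with ghR-34a. The values carry no detection calls, and the level of this transcript is too low for its differences (0.27 and 0.25 for the probe set used) to be read as a direction.

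The INK4 gene CDKN2A encodes p16 and, from another first exon and reading frame, ARF, an inhibitor of MDM2. Its brightest probe set, 209644_x_at, had signals of 3845 in mock, 4418 with miR-34a and 3647 with ghR-34a. A second, 207039_at, read 1278, 1005 and 1147 on the same arrays. The pair went opposite ways with miR-34a, at 0.20 and -0.34, and both were slightly below mock with ghR-34a, at -0.075 and -0.15. No direction can therefore be given for CDKN2A with miR-34a. The identifier of the brighter one marks a probe set that can cross-react with similar transcripts, and the part of this in the disagreement was not tested. The third probe set was near 0 in mock (3.56), with 32.5 and 8.55 in the transfectants, all below the filter.

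CDKN2B encodes p15, which TGF-beta induces in epithelial cells. Its used probe set had signals of 599 in mock, 713 with miR-34a and 722 with ghR-34a. Both transfectants were a little above mock, at 0.24 and 0.26, or 1.18-fold and 1.19-fold. The other probe set of this gene was below the filter, with signals of 50.6, 83.8 and 5.30, and differed from mock by 0.49 and -1.15. With both probe sets averaged, the ghR-34a difference was -0.44, so its direction rests on the choice of the brighter one.

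CDKN2D encodes p19-INK4D, an inhibitor whose level changes through the cell cycle. Signals were 168 in mock, 179 with miR-34a and 153 with ghR-34a, differences of 0.081 and -0.11, both inside the spike-in SD. Its other probe set was at 3.53 to 10.1. CDKN2A and CDKN2B lie next to each other in the genome, beside MTAP, an enzyme gene of the methionine salvage pathway that is often deleted with them in tumours. MTAP went from 1160.2 in mock to 838 and 823, differences of -0.45 and -0.48, and the antisense transcript CDKN2B-AS1 was listed at 1.58 to 2.48 on the 3 arrays. Signals of CDKN2A, CDKN2B and MTAP were thus well above the filter on all 3 arrays.

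**Figure D2:**
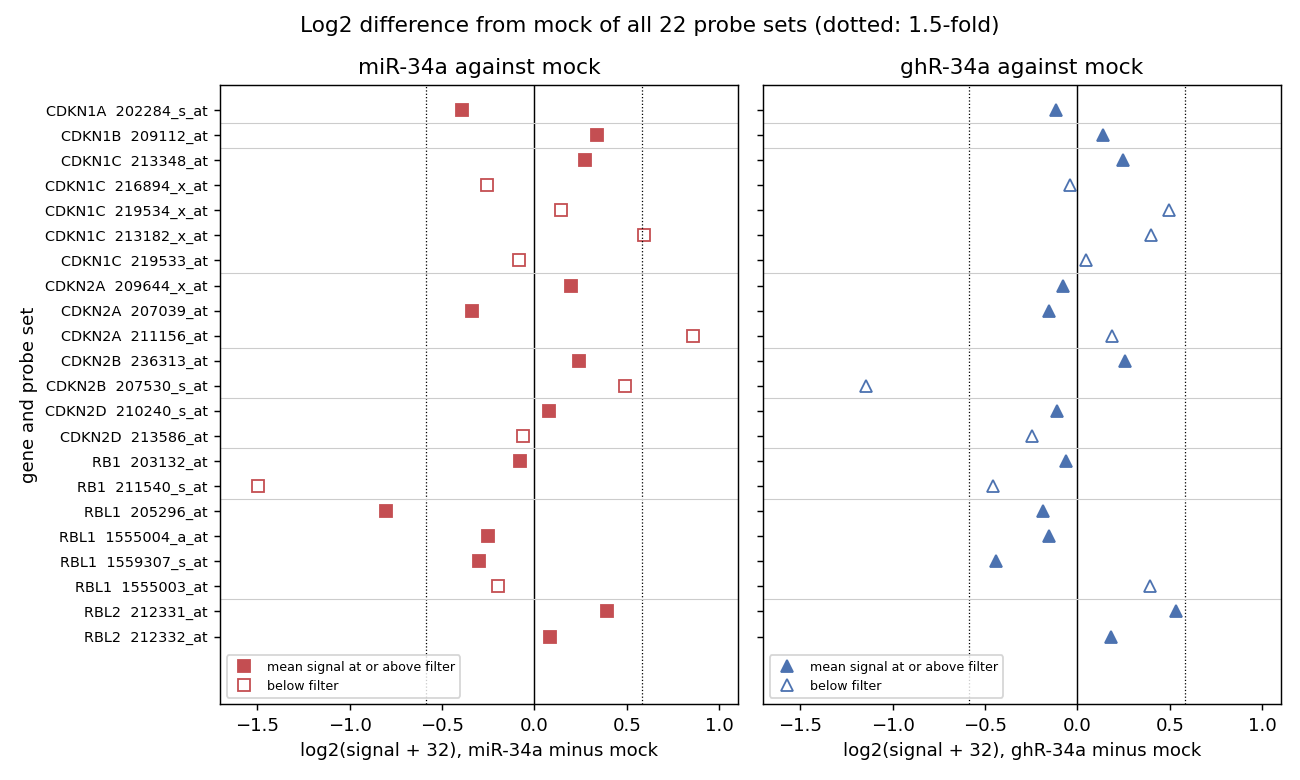
Difference from mock of log2(signal + 32) for all 22 probe sets of the 9 genes, for miR-34a (left) and ghR-34a (right), 1 array each. Filled points have a mean signal at or above the filter and open points lie below it, with dotted lines at 1.5-fold. Differences past 1.5-fold are open points of low signal, except for 205296_at of RBL1 with miR-34a at -0.81.

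The pocket proteins differed from one another. RB1, the retinoblastoma protein, was near mock, RBL1 was lower with miR-34a, and RBL2 was higher in both transfectants. RB1 had signals of 2008 in mock, 1899.9 with miR-34a and 1921 with ghR-34a on its brighter probe set, with differences of -0.079 and -0.063. Its second probe set was below the filter on its mean, at 108, 17.7 and 69.8, and differed by -1.49 and -0.46. With both averaged, RB1 was at -0.79 with miR-34a and -0.26 with ghR-34a. The size of any RB1 difference therefore depends on a dim probe set.

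RBL1 encodes p107, a pocket protein made mainly in cycling cells and itself a well-known E2F target gene. Its brightest probe set had signals of 378 in mock, 202 with miR-34a and 329 with ghR-34a. Only the miR-34a array stood well below mock, 1.75-fold lower at -0.81, and 2.21% of kept genes were as low or lower. With ghR-34a the difference was -0.18. The other probe sets above the filter had smaller differences. The probe set 1555004_a_at read 172, 139.8 and 152, at -0.25 and -0.15. The probe set 1559307_s_at read 122, 93.4 and 81.9, at -0.30 and -0.44. All 3 probe sets of RBL1 above the filter were thus below mock in both transfectants, and the one below it (1.78 to 18.8) was not informative. Averaged over its 4 probe sets, RBL1 was at -0.39 with miR-34a, short of 1.5-fold.

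RBL2 encodes p130, the pocket protein that prevails in resting cells and joins E2F4 in the DREAM complex. Signals of its brighter probe set were 1516 in mock, 1999 with miR-34a and 2206 with ghR-34a. Both transfectants were above mock, at 0.39 (1.31-fold) and 0.53 (1.45-fold). As high or higher were 14.3% of kept genes with miR-34a and 4.25% with ghR-34a. The second probe set gave 234, 250.3 and 270.0, at 0.084 and 0.18. Its miR-34a difference was inside the spike-in SD. Both probe sets of RBL2 had the same order on the 3 arrays, with mock lowest and ghR-34a highest, but neither passed 1.5-fold. RBL2 exceeded RBL1 in its difference from mock by 1.20 with miR-34a and 0.72 with ghR-34a, and by 0.63 and 0.45 with averaged probe sets.

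The stretch before the start site of RBL1 and of RBL2 is shown, because these relatives differed from mock in opposite directions and E2F binding is the known control of RBL1. Each is the 80 bases just before a RefSeq start (GRCh38.p14), at chr20:37095998-37096077 on the minus strand for RBL1 and chr16:53434391-53434470 on the plus strand for RBL2. Capitals mark matches to the E2F letters TTTCCCGC, TTTCGCGC, TTTGCCGC or TTTGGCGC, searched on both strands.

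RBL1: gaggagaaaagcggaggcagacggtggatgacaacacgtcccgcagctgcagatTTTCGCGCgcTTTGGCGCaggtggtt

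RBL2: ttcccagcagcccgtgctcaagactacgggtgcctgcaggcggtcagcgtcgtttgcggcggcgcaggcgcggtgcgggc

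RBL1 holds 2 matches, TTTCGCGC at 26 to 19 and TTTGGCGC at 16 to 9 bases before the start, which do not overlap. RBL2 holds 0 in this stretch. RefSeq windows of 300 bases (250 before and 50 after a start) were at hand for 9 of the 10 members, 13 windows in all. Only the RBL1 window held an E2F match, and 3.31% of all 35116 windows did. The CHR letters TTTGAA, an element bound by the MuvB core of DREAM, were found in 1 of the 13 windows, one of RBL2, and in 15.2% of all windows. The RBL2 match lies after the start and so outside the stretch shown. A match is a description of the letters and not a bound site. Windows without a match say nothing on whether E2F acts at those genes.

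The kinases and cyclins that the inhibitors act on were mostly below mock. Of 13 genes for G1 cyclins, their kinases and activators, 10 were below mock with miR-34a and 9 with ghR-34a (44.8% and 48.2% of all kept genes were), with medians of -0.42 and -0.44. At 1.5-fold, 4 were lower and 0 higher with miR-34a, and 4 were lower and 1 higher with ghR-34a. The shares of all kept genes were 5.31% lower and 6.66% higher with miR-34a, and 4.06% and 3.19% with ghR-34a. CDK4, a partner of the D cyclins, had a signal of 9385 in mock, 4558 with miR-34a and 5004 with ghR-34a. CDK6, its close relative, read 8761, 4554 and 4115. Both kinases, known miR-34a targets, were lower in both transfectants, at -1.04 and -0.90 for CDK4 and -0.94 and -1.08 for CDK6. With averaged probe sets CDK6 was at -0.70 and -0.99. CDC25A, the phosphatase that activates CDK2, was at -0.97 and -0.83, and CCNE2, a cyclin partner of CDK2, at -0.78 and -0.74. The other cyclin E gene, CCNE1, was not lower, at 0.033 and 0.63. It was the 1 gene of this list past 1.5-fold as an increase with ghR-34a.

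Inhibitor and kinase transcripts of the same array differed from mock by unequal amounts. The difference from mock of CDKN1B exceeded that of CDK4 by 1.38 with miR-34a and 1.04 with ghR-34a, and that of CDK6 by 1.28 and 1.22. Over CDK2, the kinase that CIP/KIP proteins block in particular, the excess was smaller, at 0.91 and 0.46, and at 0.85 and 0.16 with averaged probe sets. For CDKN2B the excess over CDK4 was 1.28 and 1.16, but with averaged probe sets it was 0.46 with ghR-34a. CDKN1A, which was below mock, exceeded CDK4 by 0.65 and 0.79 and CDK6 by 0.55 and 0.97, the last pair at 0.31 and 0.87 when averaged. These pairs were picked after their values were seen, and they compare changes, not levels of protein.

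E2F factors, which the pocket proteins bind, were also mostly lower. All 10 E2F and DP genes were below mock with miR-34a (median -0.24) and 7 of 10 with ghR-34a (median -0.17), against 44.8% and 48.2% of all kept genes. At least 1.5-fold lower were 3 and 1, and 0 were higher. Among all kept genes 5.31% and 4.06% were lower at this size, and 6.66% and 3.19% higher. E2F5, a partner of RBL2, went from 2389 to 872 and 969.6, at -1.42 and -1.27 (-1.08 and -0.98 when averaged). E2F2 was at -1.09 and -0.55 (-0.38 with ghR-34a when averaged). E2F3 was at -0.79 and -0.44 (-0.69 with ghR-34a when averaged) and E2F8, a repressing family member, at -0.45 and -0.42. E2F1, the classic partner of RB1, was at -0.36 and -0.095 on its brightest probe set, but at -1.29 and -1.54 when probe sets of the _s_at and _x_at kind were left out. E2F4, the main partner of RBL2, was at -0.13 and -0.20.

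Other partners of RBL1 and RBL2 gave a mixed picture. Of 7 genes for the MuvB core, its kinase and B-MYB, 6 were below mock with miR-34a and 5 with ghR-34a, with medians of -0.17 and -0.12. MYBL2, which encodes B-MYB and takes the place of the pocket proteins on MuvB in cycling cells, was at -1.20 and -0.76. LIN37, a MuvB subunit needed for repression, was at 0.77 and 0.36, though at 0.15 and 0.18 with its probe sets averaged. LIN54, the subunit that binds DNA, was at -0.42 and -0.31, and the histone-binding subunit RBBP4 at -0.37 and -0.15, though at -0.59 and -0.69 without _s_at and _x_at probe sets.

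Genes that pocket protein complexes are known to repress were below mock in 21 of 21 cases with either RNA, against 44.8% and 48.2% of all kept genes. The medians were -0.53 and -0.44, with 10 and 7 at least 1.5-fold lower and 0 higher, and 3 and 1 at least 2-fold lower. Among all kept genes 5.31% and 4.06% were at least 1.5-fold lower, and 1.14% and 0.571% at least 2-fold lower. TK1, thymidine kinase, was at -1.15 and -0.96, and the helicase subunits MCM5, MCM2 and MCM3 were at -0.99 and -1.07, -1.07 and -0.88, and -1.02 and -0.84. Both comparisons share the mock array, and the list was written with earlier results of these arrays known, so its direction is not independent evidence.

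**Figure D3:**
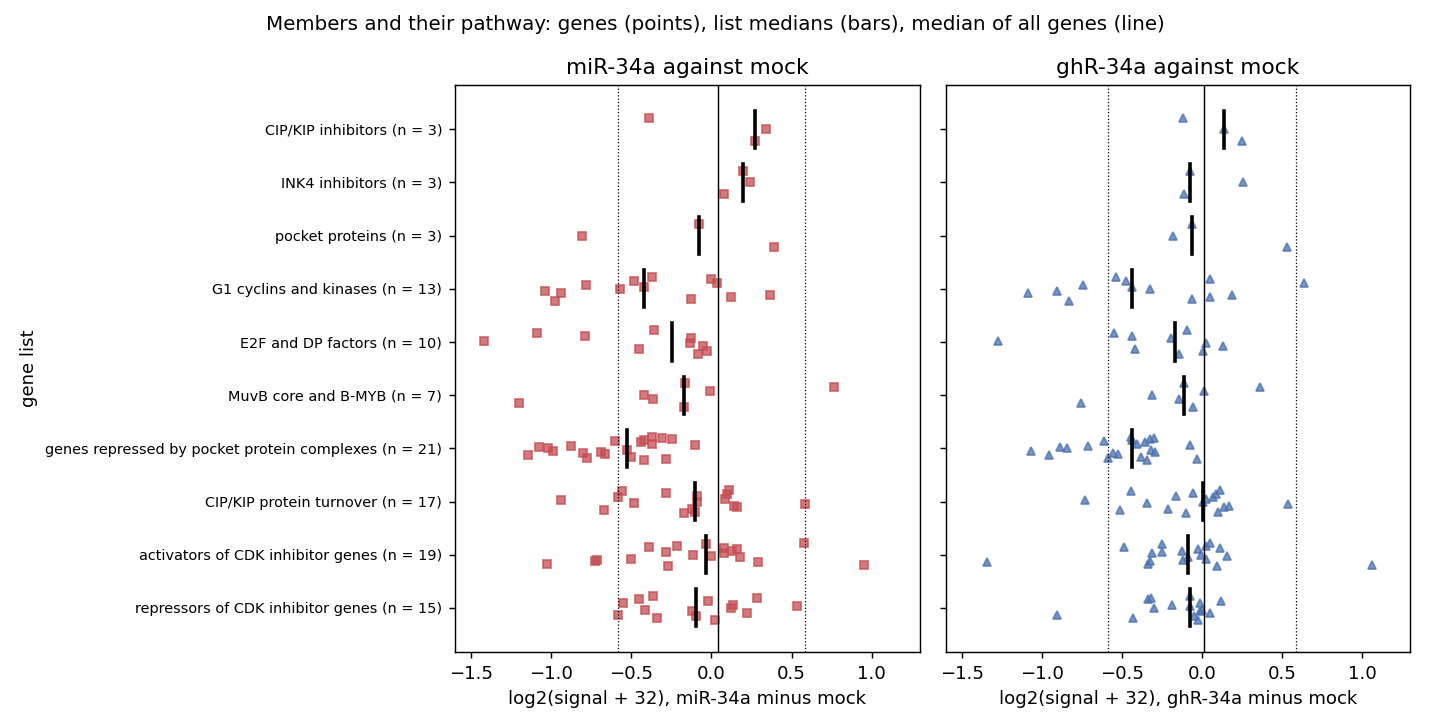
Difference from mock of log2(signal + 32) for the measured inhibitors, pocket proteins and 7 lists of related genes, for miR-34a (left) and ghR-34a (right). Points are genes, thick bars list medians, the full line the median of all kept genes and dotted lines 1.5-fold. The 3 upper rows lie around the full line with RBL1 as the low point with miR-34a, while the genes repressed by pocket protein complexes lie wholly to its left.

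Genes that set the stability of CIP/KIP proteins differed little as a list. Of 17, 11 were below mock with miR-34a (median -0.11) and 8 with ghR-34a (median 0.0080). At least 1.5-fold lower were 2 and 1, and 1 and 0 were higher. Among all kept genes 5.31% and 4.06% were lower at this size, and 6.66% and 3.19% higher. SKP2, which marks p27 for destruction, was at 0.11 in both, while its cofactor CKS1B was at -0.56 and -0.44. DTL, the substrate receptor that directs p21 destruction at PCNA, was at -0.94 and -0.73, and PCNA at -0.67 and -0.51. FBXW7, the receptor that marks cyclin E, was at 0.59 and 0.53, but at 0.36 and 0.32 with averaged probe sets, short of 1.5-fold. Protein levels were not measured.

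Transcriptional regulators of the inhibitor genes had medians close to mock, but more of them were below mock than above. Of 19 kept activators, 11 were below mock with miR-34a and 12 with ghR-34a. Of 15 kept repressors, 9 and 12 were below, against 44.8% and 48.2% of all kept genes. Of 19 activators that were kept, 3 were at least 1.5-fold lower and 1 higher with miR-34a. With ghR-34a 1 was lower and 1 higher, and the medians were -0.032 and -0.090. Of all kept genes 5.31% were lower and 6.66% higher at this size with miR-34a, and 4.06% and 3.19% with ghR-34a. Counts this small say little about the regulators in particular. EGR1, an immediate early factor, was higher in both, from 846 in mock to 1665 and 1803 (0.95 and 1.06). MXI1, a MYC antagonist, was at -1.03 and -0.34, and ETS2 at -0.73 and -0.33. The ETS2 difference with miR-34a was -0.49, short of 1.5-fold, both with a pseudocount of 100 and with averaged probe sets. MEN1, whose protein menin works with MLL on the CDKN1B gene, was at 1011 in mock, 1241 with miR-34a and 379 with ghR-34a, differences from mock of 0.29 and -1.34. Of 15 kept repressors, 0 were past 1.5-fold with miR-34a and 1 was lower with ghR-34a, HDAC1 (-0.58 and -0.91), with medians of -0.098 and -0.075. With each array centred on its median, HDAC1 (-0.64) and EED (-0.61) did pass 1.5-fold with miR-34a. EZH2, the Polycomb methyltransferase that silences CDKN2A in many cells, was at -0.45 and -0.34, and DNMT1 at -0.34 and -0.43. EED, another Polycomb subunit, was at -0.55 and -0.010, but at 0.23 and -0.62 without probe sets of the _s_at and _x_at kind.

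Chromatin partners and phosphatases of the pocket proteins had medians near mock. Of 13 kept chromatin partners, 1 was at least 1.5-fold lower with each RNA. This was the methyltransferase SUV39H1 with miR-34a (-0.72 and -0.41) and HDAC1 with ghR-34a, and the list medians were 0.010 and -0.050. For all counts of this paragraph, 5.31% of kept genes were lower and 6.66% higher at 1.5-fold with miR-34a, and 4.06% and 3.19% with ghR-34a. Phosphatase subunits that act on pocket proteins had medians of -0.031 and 0.0083, with PPP2R1A alone past 1.5-fold, at 0.74 with miR-34a and 0.071 with ghR-34a. Of 12 other genes that restrain CDKs or proliferation, PKMYT1 (-0.86 and -0.60), an inhibitory kinase of CDK1, and CDKN3 (-0.63 and -0.58), a phosphatase of CDK2, were at least 1.5-fold lower with miR-34a, and CDK2AP2 was higher (0.59 and -0.053). With ghR-34a, PKMYT1 alone passed 1.5-fold, but CDKN3 was just short of it and passed it with averaged probe sets (-0.65). With a pseudocount of 100, CDK2AP2 with miR-34a (0.54) and PKMYT1 with ghR-34a (-0.55) were short of it. BTG1, an antiproliferative gene, was at 0.22 and 0.31.

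The transfectants were also set against each other at the same dose and time. Of the 9 members, 1 was at least 1.5-fold higher with ghR-34a than with miR-34a, against 2.24% of kept genes, and 0 were lower, against 3.27%. At 2-fold the members' counts were 0 each way, where 0.327% of kept genes were higher and 0.344% lower. The member past 1.5-fold was RBL1, with 329 and 202, at 0.62, where 1.80% of kept genes were as high or higher. The other RBL1 probe sets above the filter differed by 0.097 and -0.14, so the difference was not shared by them. The members' median was 0.016 and that of all kept genes -0.031. CDKN1A was at 0.27, CDKN1B at -0.20, CDKN2A at -0.27, CDKN2B at 0.017 and CDKN2D at -0.19. For CDKN2A its second probe set was at 0.18, the opposite sign. RBL2 was at 0.14 and RB1 at 0.016. Without replicates no interval can be put on these differences, and their smallness does not show that the RNAs act alike.

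Under other processing of the same values, 5 of the 9 members moved by more than the spike-in SD in at least 1 comparison with mock (CDKN2A, CDKN2B, RB1, RBL1 and RBL2). CDKN2A changed sign with miR-34a (-0.34 without _s_at and _x_at probe sets), CDKN2B with ghR-34a (-0.44 with averaged probe sets), and RB1 reached -0.79 with miR-34a when averaged. The others kept their sign against mock. CDKN1A was below mock with miR-34a under all 7 alternatives that gave it a value (-0.45 to -0.37), and CDKN1B above under all 8 (0.28 to 0.35). Both genes have 1 probe set, so averaging and the choice of filter or probe sets could not change their values. A change of pseudocount cannot alter their sign either. Only median centring and quantile normalization could have done so. RBL2 was above mock under all 8 with miR-34a (0.24 to 0.40) and with ghR-34a (0.36 to 0.55). RBL1 was below under all 8 (-0.90 to -0.39 with miR-34a). The alternatives reuse the same 3 arrays and say nothing of how a second culture would read.

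**Figure D4:**
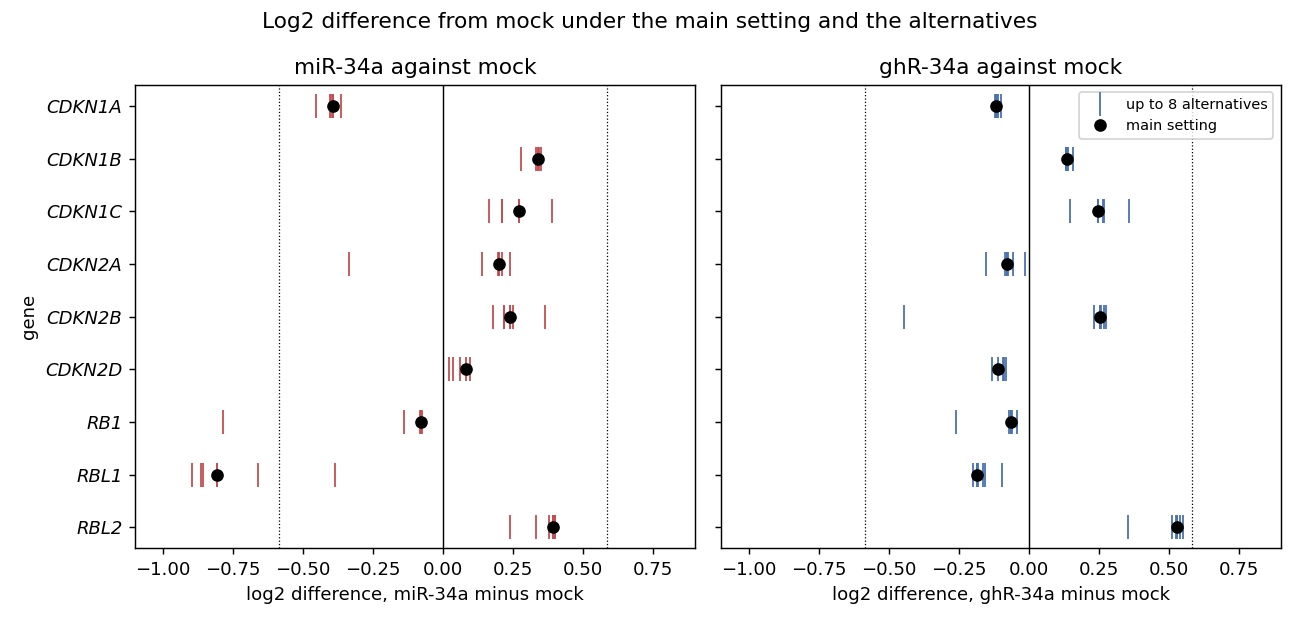
Difference from mock of each measured gene under the main setting (black points) and up to 8 alternatives (coloured ticks), for miR-34a (left) and ghR-34a (right), on a log2 scale with dotted lines at 1.5-fold. Ticks on the other side of 0 occur for CDKN2A with miR-34a (-0.34) and CDKN2B with ghR-34a (-0.44), and RB1 moves to -0.79 with miR-34a when its probe sets are averaged.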

How the data were processed

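The authors deposited linear probe set intensity values, made with Affymetrix Expression Console per the submitters' processing notes, whose version is not given in the sources used here. Per the labels' protocols, biotinylated cRNA came from 250 ng of total RNA. The deposited values have the same 2% trimmed mean (500.1) on all 3 arrays, hence a common scaling, and came without detection calls.

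Each signal was turned into log2(signal + 32) without rescaling the arrays, and 62 control probe sets were set aside. Of the rest, 41091 probe sets had 1 gene symbol in the platform annotation, 1801 with several were left out, and 11721 had no name here. All 22 member probe sets matched RefSeq by Entrez identifier and symbol. The brightest probe set stood for a gene (11917 of 19775 kept). No test was possible. Counting by size was run on simulated data, which checks the counting itself and says nothing of these arrays. The members and lists were chosen with earlier results of these data known. Named genes are all members, SKP2, CKS1B, E2F1, CDK4, CDK6, and up to 4 per list with the largest absolute mean of both differences from mock. Marker genes were added, as were E2F4 and CCNE1, which were chosen after their values were seen. Alternatives were pseudocounts of 1 and 100, median centring, quantile normalization, averaged probe sets, no _s_at or _x_at probe sets, no filter and a filter at 200. ACTB differed from mock by 0.12 and 0.065 and GAPDH by -0.022 and -0.11. Software was matplotlib 3.10.9, scipy 1.17.1, pandas 2.3.3 and numpy 2.4.6 under Python 3.11.15.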

Additional observations from a re-analysis of the deposited data

How the results depend on the processing

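Of 120 values of the members' counts and medians under the alternatives, 116 kept to the main value within the spike-in SD (medians) or 1.5 times (counts). This share overstates stability. Most of the values are counts of 0 that could hardly move, and dropping the filter leaves the members unchanged. An equal count of a different member also scored as kept. Without _s_at and _x_at probe sets the members' median for ghR-34a minus mock was 0.14 in place of -0.063, with 7 members left. CDKN1A (-0.12) and CDKN2D (-0.11), both below mock with ghR-34a, are left out there, so the 2 medians cover different genes. For ghR-34a minus miR-34a, the count at least 1.5-fold higher was 0 with a pseudocount of 100 and 0 with averaged probe sets, in place of 1, and the count lower was 1 with averaged probe sets, CDKN2B, in place of 0. With averaged probe sets the single member at least 1.5-fold lower with miR-34a was RB1 and not RBL1. That setting leaves out CDKN1C and CDKN2D, and the filter at 200 does the same. No scaling moved the median of all genes by over 0.1. No paired analysis was possible because each condition has 1 array. Depth has no equivalent here, and signals near 68.6 or below carry the least certain differences.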
